A study of Mus musculus with 5 samples.

Results

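Chromatin accessibility (ChrAcc) was examined around Bcl11b and Satb1, a pair of genes for nuclear proteins of the T cell lineage, in naïve CD8+ T cells with and without the transcription factors Tcf1 and Lef1. The members were all DNase-seq peaks of both genotypes whose summit, the base with the most fragments over it, lay in the body of either gene or within 300 kb on either side of it in the mm9 mouse genome. This rule took 81 of the 56641 deposited peaks, 47 at Bcl11b (27 of the WT list and 20 of the dKO list) and 34 at Satb1 (21 and 13). Bcl11b (ENSMUSG00000048251.9) spans chr12:109148613-109241812 with 4 exons, Satb1 (ENSMUSG00000023927.7) spans chr17:51875512-51972615 with 11 exons in its transcript 001, and both lie on the minus strand.

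WT cells came from hCD2-Cre+ Rosa26GFP Tcf7+/+ Lef1+/+ mice and dKO cells from hCD2-Cre+ Rosa26GFP Tcf7fl/fl Lef1fl/fl mice, so both groups carried the Cre transgene and the GFP reporter. Mice of both sexes were 6 to 12 weeks old and on the C57BL/6 background. The hCD2 promoter drives Cre mainly in T cells that have left the thymus and excises its targets in most but not all of them, so GFP+ TCRbeta+ CD62Lhi CD44lo-med CD8+ splenocytes were sorted. Cells of the dKO group thus passed through most of thymic development before the deletion. The labels give the deleted state as Tcf1-/-Lef1-/-. Accessibility does not measure the deletion itself.

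The deposited data are 1 peak list per genotype, called on the pooled fragments of 3 WT replicates (83923734 fragments) and of 2 dKO replicates (62242963 fragments). Neither a value per replicate nor a spread between replicates could therefore be had for any site, and the genotypes were compared without a p-value. The study itself tested sites between genotypes on counts per replicate. Sites in 1 list alone, as given here, are not those calls. A promoter site, within 1 kb of a transcription start site (TSS), was present for 9 of 9 CD8+ T cell markers in WT and 8 of 9 in dKO, where Cd3d had none. None of the B cell, NK cell and CD4+ T cell markers had such a site in either list, and of 4 myeloid markers Itgam alone had 1, in WT. Of the deleted genes, Lef1 had a promoter site in WT and none in dKO, and Tcf7 had none in either list.

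Bcl11b is a zinc finger transcription factor that commits thymic precursors to the T cell lineage and holds mature T cells to it. Satb1 binds AT-rich DNA, folds chromatin around its target genes and is abundant in thymocytes and naïve T cells. Sites that DNase I cuts readily are mostly promoters, enhancers and insulators, which transcription factors have freed of nucleosomes, and lineage genes of this kind often carry enhancers far out in gene-poor surroundings. Tcf1 and Lef1 bind DNA through an HMG box at sequences built around ATCAAAG.

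The sequences below are the 201 bases of mm9 around the summits, on the plus strand, with the ATCAAAG core or its reverse complement in capitals. The first 3 are shown because they were the only ChrAcc sites of these loci with that core within 100 bp of the summit, and none of them had a counterpart in the dKO list. Over the whole WT list the core also occurred in shared sites, in 2.61% of them, beside 6.98% of sites in WT alone.
Bcl11b +224 kb, chr12:109017504-109017704: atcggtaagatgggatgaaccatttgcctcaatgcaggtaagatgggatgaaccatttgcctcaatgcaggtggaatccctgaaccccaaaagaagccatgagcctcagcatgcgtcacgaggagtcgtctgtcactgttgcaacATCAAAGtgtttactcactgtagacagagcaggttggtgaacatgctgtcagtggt
Bcl11b -118 kb, chr12:109359606-109359806: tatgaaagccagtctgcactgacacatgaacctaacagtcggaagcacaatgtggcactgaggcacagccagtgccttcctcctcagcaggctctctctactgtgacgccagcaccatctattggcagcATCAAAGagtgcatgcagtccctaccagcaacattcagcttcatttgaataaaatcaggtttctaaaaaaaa
Satb1 -47.7 kb, chr17:52019567-52019767: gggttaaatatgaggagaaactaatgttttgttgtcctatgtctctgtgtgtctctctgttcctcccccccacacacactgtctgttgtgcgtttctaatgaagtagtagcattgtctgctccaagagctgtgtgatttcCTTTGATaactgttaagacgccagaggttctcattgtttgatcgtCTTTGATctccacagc
The next 3 are shown because they had the highest WT pileup among the sites without a dKO counterpart at Bcl11b (the first) or at Satb1 (the other two), and they hold no such core.
Bcl11b +82.2 kb, chr12:109159493-109159693: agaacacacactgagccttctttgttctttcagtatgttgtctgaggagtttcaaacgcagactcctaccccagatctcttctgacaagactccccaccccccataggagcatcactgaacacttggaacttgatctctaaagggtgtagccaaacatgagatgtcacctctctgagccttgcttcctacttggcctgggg
Satb1 -46.8 kb, chr17:52018680-52018880: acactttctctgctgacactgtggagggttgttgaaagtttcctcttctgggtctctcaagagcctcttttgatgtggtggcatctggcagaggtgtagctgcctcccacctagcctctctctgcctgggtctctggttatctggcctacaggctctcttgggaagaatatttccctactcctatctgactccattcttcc
Satb1 +43.4 kb, chr17:51928539-51928739: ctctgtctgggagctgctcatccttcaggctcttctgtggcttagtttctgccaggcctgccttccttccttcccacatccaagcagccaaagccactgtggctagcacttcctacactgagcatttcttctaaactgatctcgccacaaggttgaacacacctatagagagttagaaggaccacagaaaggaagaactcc
The last 3 are shown because their pileup in dKO was the highest relative to WT at either locus or gained most in rank, and they hold no such core either.
Bcl11b +274 kb, chr12:108967575-108967775: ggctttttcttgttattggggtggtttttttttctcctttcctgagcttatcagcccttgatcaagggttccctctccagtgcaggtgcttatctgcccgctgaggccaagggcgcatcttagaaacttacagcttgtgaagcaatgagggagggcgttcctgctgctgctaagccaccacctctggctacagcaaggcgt
Satb1 -44.0 kb, chr17:52015942-52016142: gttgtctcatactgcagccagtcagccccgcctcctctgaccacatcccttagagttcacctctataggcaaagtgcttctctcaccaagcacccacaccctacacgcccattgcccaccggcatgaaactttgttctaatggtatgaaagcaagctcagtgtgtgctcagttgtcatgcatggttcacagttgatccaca
Satb1 -229.7 kb, chr17:52201559-52201759: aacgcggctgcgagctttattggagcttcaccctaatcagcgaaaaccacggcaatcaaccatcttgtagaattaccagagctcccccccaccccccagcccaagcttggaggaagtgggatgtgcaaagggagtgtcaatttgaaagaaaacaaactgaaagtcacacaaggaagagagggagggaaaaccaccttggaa
Positions in kb count from the TSS of transcript 001 to the summit, positive in the direction of transcription.

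The surroundings of the genes differed. The Satb1 window held no other annotated gene, and the nearest coding genes were Tbc1d5 at 557 kb on the 3′ side and Kcnh8 at 892 kb on the 5′ side. The 3′ side of Bcl11b held the non-coding genes Gm15208 and 4930465M20Rik and the pseudogene Gm9006, with the next coding gene, 3110018I06Rik, at 421 kb. The 5′ side of Bcl11b was not a gene desert, since Setd3 lay 103 kb away and Ccnk and Ccdc85c lay behind it.

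A peak was called a ChrAcc site when its fold enrichment, the summit's fragment count relative to the background its own pool has nearby, was at least 4 with p under 1e-05 and q under 0.05. These criteria left 24 WT and 19 dKO sites at Bcl11b and 20 WT and 12 dKO sites at Satb1. The weakest site inside the criteria at Bcl11b had a fold enrichment of 4.09 in WT and 4.50 in dKO, and the strongest peak outside them had 3.93 and 3.70. At Satb1 the corresponding values were 4.05 and 4.11 inside and 3.89 and 3.73 outside. At the edges of the windows, the outermost WT site inside lay 10.4 kb (Bcl11b, 5′ side) to 53.8 kb (Satb1, 5′ side) from the edge, and the first WT site outside lay 16.0 kb (Satb1, 5′ side) to 248 kb (Bcl11b, 3′ side) beyond it. Among 22367 protein-coding genes with windows made the same way, the median was 13 WT sites, and Bcl11b stood at percentile 80.0 and Satb1 at 70.8. Among the 3717 of these genes with at most 5 coding genes in the window, the median was 3 WT sites, and the percentiles were 97.9 and 95.6. Both loci thus ranked high in sites among all windows with so few genes, which is not particular to them. Of the other transcription factor genes compared below, Ets1 (40 WT sites) and Lef1 (33) had such windows with more sites than Bcl11b. Myb (22), Tox (16) and Bcl11a (5) had such windows with fewer. The Bcl11b count includes the promoters of Setd3 and Ccdc85c.

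The sites of both lists merged into 28 union sites at Bcl11b and 21 at Satb1. At Bcl11b, 15 union sites were shared (an overlap of at least 1 bp), 9 were WT-only and 4 dKO-only. At Satb1, 11 were shared, 9 WT-only and 1 dKO-only. The WT sites without a dKO site made up 37.5% of the WT sites at Bcl11b (95% Wilson interval 21.2 to 57.3%) and 45.0% at Satb1 (25.8 to 65.8%). In the whole WT list the share was 27.6%. All 18 such sites of these loci lay more than 1 kb from a TSS, and among WT sites at that distance the share was 45.0% at Bcl11b (9 of 20, 25.8 to 65.8%) and 50% at Satb1 (9 of 18, 29.0 to 71.0%), beside 35.3% in the whole list. The weaker a site, the more often it was missing from the dKO list. The whole WT list was split into 10 equal parts by fold enrichment, and each member was given the share of its part. The sum came to 8.61 sites at Bcl11b and 8.40 at Satb1, beside the 9 and 9 observed. Sites missing from the dKO list were thus about as many as among WT sites of the same strength elsewhere. In the other direction, 21.1% of the dKO sites at Bcl11b (8.51 to 43.3%) and 8.33% at Satb1 (1.49 to 35.4%) had no WT site, beside 14.4% in the whole dKO list. More than 1 kb from a TSS it was 26.7% at Bcl11b (4 of 15, 10.9 to 52.0%) and 0 of 9 at Satb1, whose upper limit was 29.9%, beside 21.6% in the whole list. The same sum gave 3.42 and 2.47 sites, beside 4 and 1 observed. Intervals cover counting error over sites only. When each list was cut to its 20000 peaks with the highest −log10 p, which removes the difference in length between the lists, 4 sites were WT-only and 7 dKO-only at Bcl11b, and 3 and 2 at Satb1. At Bcl11b, 1 of the 4 and 5 of the 7 were shared under the main criteria, as were the 2 dKO-only sites at Satb1. Their peak in the other list ranked below the cut. The shares over all peaks at this cut are not given here, so these counts cannot be set against a background.

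**Figure D1:**
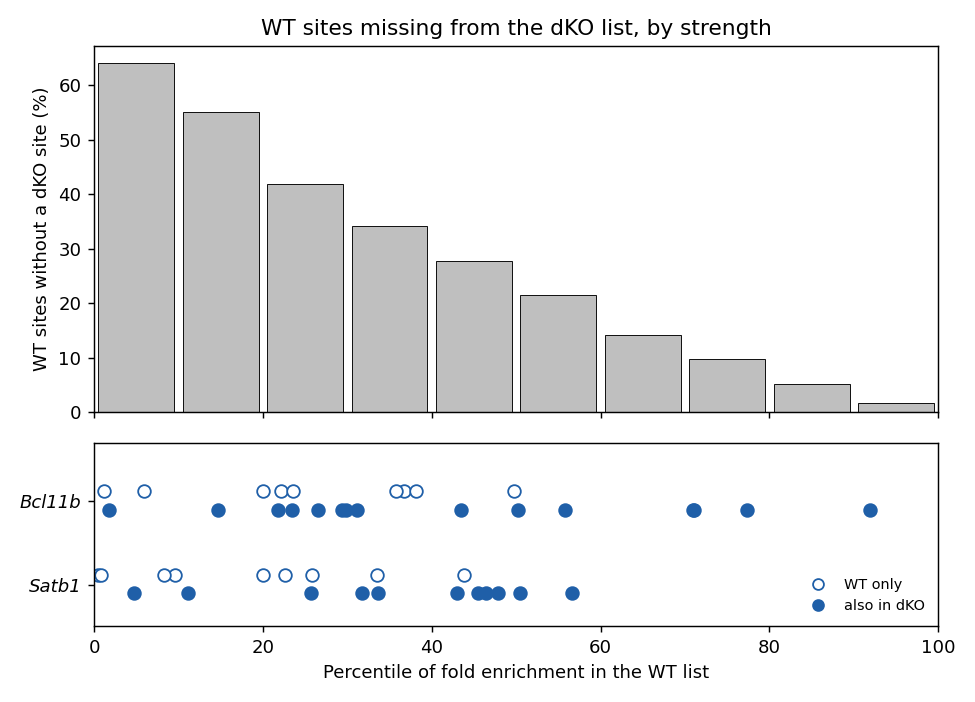
The upper panel shows the share of all WT sites that overlap no dKO site (%, bars, y axis) in 10 equal parts of the WT list ordered by the percentile of fold enrichment (x axis). The lower panel places the WT sites of Bcl11b and Satb1 on the same axis, open circles for those in WT alone and filled circles for those also in dKO. The bars drop from 64.0% in the weakest part to 1.72% in the strongest, and the open circles of both loci sit at or below a percentile of 49.8.

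Pileup counts the fragments that cover the summit and depends on depth. It was compared between genotypes only at shared sites, as the log2 ratio of dKO over WT minus the median of all 20533 shared sites, where the uncentred median ratio was 0.676. Scaling by the fragments of the pools instead, at a ratio of 0.742, would make every centred log2 value 0.13 lower. Of all shared sites, 1.51% were at least 2-fold higher in dKO and 0.75% at least 2-fold lower. At Bcl11b the median of the 15 shared sites was 0.02, with a range from -0.35 to 1.04, and at Satb1 the median of 11 was 0.17, from -0.41 to 1.13. At each locus 1 shared site was at least 2-fold higher in dKO and 0 were at least 2-fold lower, and scaled by fragments both stayed below 2-fold. The 95% exact counting interval of the ratio lay above the median of all shared sites at 2 sites of Bcl11b and 2 of Satb1 and below it at 0, beside 7.56% above and 5.39% below among all shared sites. Scaled by fragments, it lay above at 1 site of each locus (+274 kb and -229.7 kb) and below at 0, beside 4.21% and 11.2%. Shared sites of low WT pileup had higher ratios over the whole list, and a site entered this comparison only if both pools met the criteria. Beside shared sites of the same WT pileup within 10%, the median difference was 0.03 at Bcl11b and 0.00 at Satb1.

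**Figure D2:**
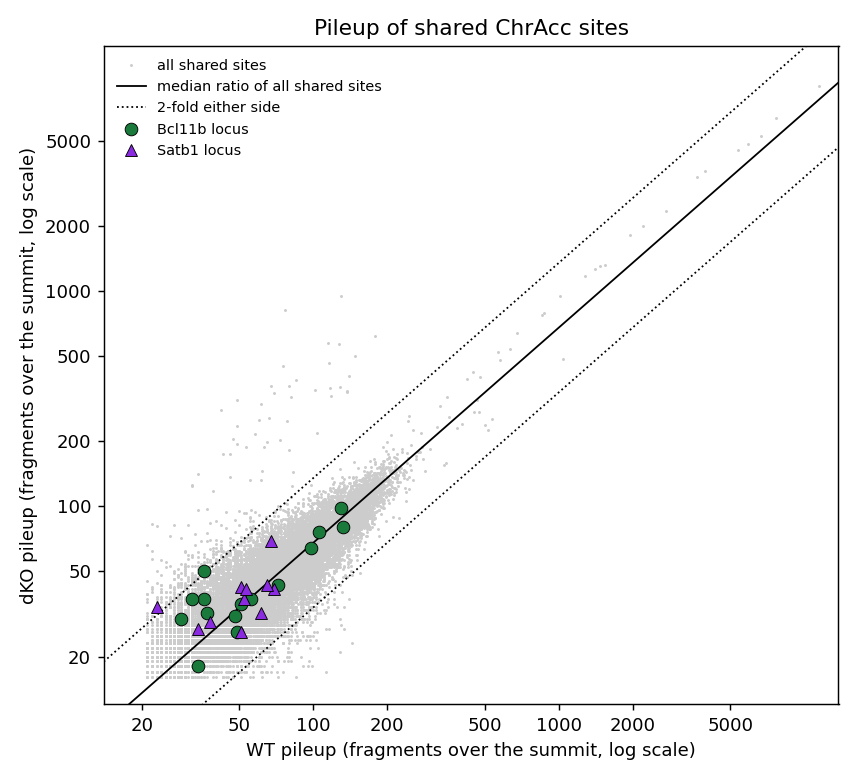
Pileup at shared ChrAcc sites in fragments over the summit, WT on the x axis and dKO on the y axis, both log scales. Grey points are all shared sites, green circles those of Bcl11b, purple triangles those of Satb1, the solid line is the median ratio of 0.676 and the dotted lines are 2-fold either side of it. The members follow the solid line, and 1 site of each locus lies just above the upper dotted line.

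At Bcl11b the promoter was the strongest site in fold enrichment in both lists. Its summit lay 563 bp upstream of the TSS, with a pileup of 130 in WT and 98 in dKO and percentiles of fold enrichment within the own list of 91.9 and 95.3. Its centred log2 ratio of 0.16 (counting interval -0.24 to 0.55) included the median of all sites. The promoters of the neighbours were the next in WT. Ccdc85c had pileups of 98 and 64 (percentiles 77.3 and 89.4), and Setd3, which codes for an actin histidine methyltransferase, had 132 and 80 (71.0 and 71.1). In dKO a site in intron 1 at +10.4 kb came after the promoters of Bcl11b and Ccdc85c, with pileups of 106 in WT and 76 in dKO and percentiles of 71.0 and 81.2. Neither promoters nor this intronic site differed by more than 0.16 in size from the median ratio.

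**Figure D3:**
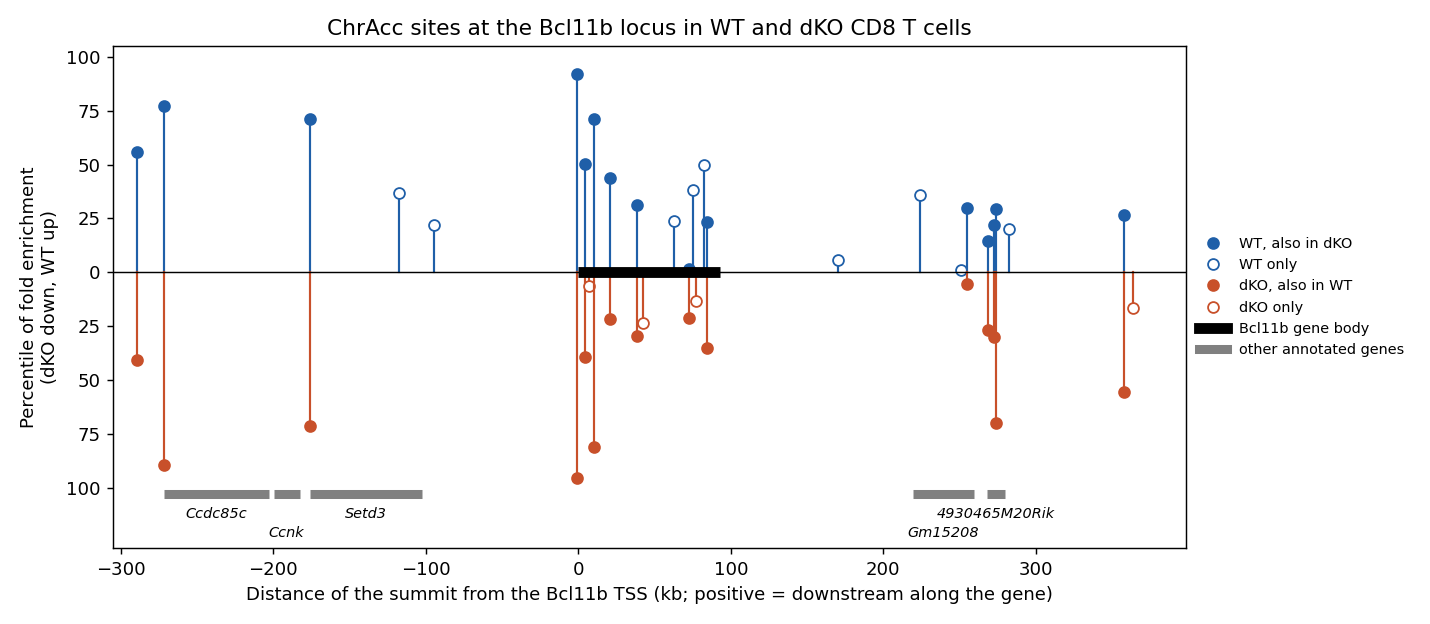
ChrAcc sites at Bcl11b by distance of the summit from the TSS (kb, x axis), with the percentile of fold enrichment within the own list upward for WT and downward for dKO (y axis). Filled circles are shared sites, open circles sites in 1 list alone, the black bar is Bcl11b and the grey bars are other annotated genes. The promoter reaches 91.9 in WT and 95.3 in dKO, and the open WT circles are spread over introns and both flanks.

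Within the Bcl11b gene body and promoter, 7 sites were shared, 3 WT-only and 3 dKO-only, so each list had 10. The sites in WT alone all lay in intron 3. The site at +82.2 kb (chr12:109159387-109159753) had a WT pileup of 92 and a fold enrichment of 8.41, which gave it percentile 49.8. Only 101 of the 7846 WT sites without a dKO site had a pileup as high or higher. An equal opening would give 68.2 fragments at the depth of the dKO pool. Against the background of the nearest dKO site, 1.35 times that of the genome, 21 would meet the criteria. The WT background at the site itself was 2.29 times that of the genome, so with a like background in dKO more would be needed. The dKO list held no peak there, also none below the criteria. The site at +75.5 kb had a WT pileup of 69 (percentile 38.1), which amounts to 51.2 at dKO depth, where 28 would meet the criteria. The site at +62.7 kb had a pileup of 37 (percentile 23.6).

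In the Bcl11b gene body, the percentiles of the sites in dKO alone ran from 6.26 to 23.6. Those of the sites in WT alone ran from 23.6 to 49.8. Pileups of the 2 groups are not alike in depth, since 31 and 36 dKO fragments amount to 41.8 and 48.5 at WT depth. Some of the sites in dKO alone were present in WT below the criteria. The site at +7.29 kb in intron 1 had a dKO pileup of 31 (percentile 6.26), and WT had a peak there with a pileup of 42 whose fold enrichment of 3.93 missed the criteria. The site at +77.4 kb in intron 3 had 36 (percentile 13.1), and the WT peak there also had a pileup of 36 with a fold enrichment of 3.17. At +42.4 kb in intron 3 the dKO pileup was 31 (percentile 23.6) without any WT peak. At the intronic sites that met the criteria, the local background was up to 10.1 fragments in WT and up to 6.17 in dKO, beside 4.40 and 3.23 over the genome, and its part in the differences of percentile was not tested. In the last 11.8 kb with sites of intron 3, the order from 5′ to 3′ was shared, WT alone, dKO alone, WT alone, shared. The outer shared sites had pileups of 37 and 32 (+72.8 kb) and 56 and 37 (+84.6 kb) in WT and dKO.

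The 3′ flank of Bcl11b held 10 union sites, 5 shared, 4 WT-only and 1 dKO-only. The shared sites of its far end had higher relative pileups in dKO. The site at +274 kb, in 4930465M20Rik, had 36 fragments in WT and 50 in dKO, a centred log2 ratio of 1.04 (0.39 to 1.70), and its percentile was 29.3 in WT and 70.0 in dKO. The site at +358 kb had 32 and 37 fragments, a ratio of 0.77 (0.05 to 1.50), and percentiles of 26.5 and 55.3. The sites at +269 kb (29 and 30 fragments) and +272 kb (36 and 37) had ratios of 0.61 (-0.17 to 1.40) and 0.60 (-0.10 to 1.31), whose counting intervals include the median of all sites. All 4 thus had more fragments in the shallower dKO pool than in WT. Shared sites with the WT pileup of the +274 kb site had a median ratio of 0.21, and 96.7% of them had a lower ratio than it. For the +358 kb, +272 kb and +269 kb sites the corresponding shares were 87.5%, 82.0% and 76.8%. The remaining shared site of this flank, at +255 kb in Gm15208, went the other way with 34 and 18 fragments, a ratio of -0.35 (-1.26 to 0.51) and percentiles of 29.8 and 5.39.

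The sites in WT alone in the Bcl11b flanks were of low pileup. On the 3′ side they were at +170.3 kb (pileup 23, percentile 5.91), +224 kb in Gm15208 (45, 35.8), +251 kb (21, 1.19) and +282 kb (29, 20.0). On the 5′ side they were at -118 kb within Setd3 (37, 36.8) and -94.8 kb (30, 22.1). The site in dKO alone was at +364 kb (22, 16.8). Those at +224 kb and -118 kb are the ones with the ATCAAAG core printed above. The first amounts to 33.4 fragments at dKO depth, where 16 would meet the criteria against the background of the nearest dKO site. The second amounts to 27.4 and the site at -94.8 kb to 22.2, where 29 would be needed against that background. For both, the nearest dKO site was the Setd3 promoter, with a background of 6.40 fragments. The WT background at both was 4.38, near the 4.40 over the genome. At a dKO background of 3.22, near its genome level of 3.23, 16 fragments would suffice, so an equal opening could have met the criteria. The +251 kb site amounts to 15.6, where 16 are needed. Against the nearest dKO background, 6 of the 9 WT-only sites of the Bcl11b window would have met the criteria at dKO depth. This count depends on the background chosen and on the scaling, here the ratio of fragments of 0.742. The median ratio of shared sites, 0.676, would give lower values. The sites were also picked because they passed in WT, and their pileups were taken without counting error. The count is thus a description and no test.

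At Satb1 the promoters stood lower in rank than that of Bcl11b. The first TSS of the gene, that of transcript 005, lay 1 bp from the summit of a site with pileups of 51 in WT and 42 in dKO and percentiles of 25.7 and 26.2. Its centred log2 ratio was 0.28 (-0.34 to 0.90). The promoter of transcript 201, at +5.99 kb in intron 1 of transcript 001, had pileups of 65 and 43, percentiles of 56.7 and 39.2, and a ratio of -0.03 (-0.62 to 0.55). It was the strongest WT site of the locus by fold enrichment. At -1.34 kb, within 1 kb of the first TSS, a site in dKO alone had a pileup of 27 (percentile 1.44). In intron 9, the site at +70.0 kb had 53 and 41 fragments and stood at percentiles 50.5 and 44.5, among the top 3 in both lists.

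**Figure D4:**
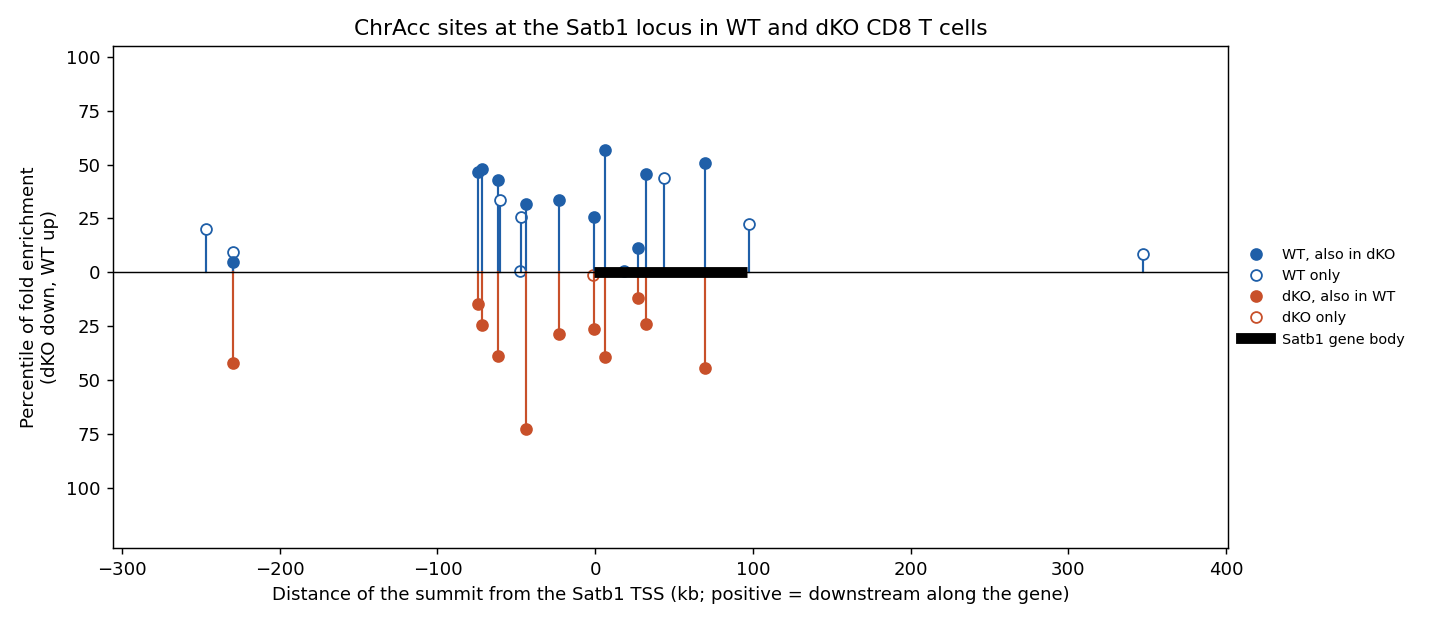
ChrAcc sites at Satb1 by distance of the summit from the TSS (kb, x axis), with the percentile of fold enrichment within the own list upward for WT and downward for dKO (y axis). Filled circles are shared sites, open circles sites in 1 list alone, and the black bar is Satb1. A group of 7 WT sites lies between -74.0 and -44.0 kb, and the site at -44.0 kb reaches 72.8 in dKO.

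Upstream of Satb1, 7 WT sites lay within 29.9 kb, and 4 of them were shared. The site at -44.0 kb had 67 fragments in WT and 69 in the shallower dKO pool, a centred log2 ratio of 0.61 (0.10 to 1.11), and its percentile was 31.7 in WT and 72.8 in dKO, the highest at the locus. The local background at this site was 9.30 fragments in WT and 5.25 in dKO, or 2.11 and 1.63 times that of the genome. The percentile of fold enrichment depends on it, and its part in the gain was not tested. Of the shared sites with the same WT pileup, 95.6% had a lower ratio of pileup. The other 3 shared sites had lower percentiles in dKO. The site at -74.0 kb had 61 and 32 fragments, a ratio of -0.37 (-1.03 to 0.27), and percentiles of 46.4 and 14.7. The site at -71.5 kb had 69 and 41 fragments (47.8 and 24.5), and that at -61.8 kb had 52 and 37 (43.0 and 38.8). The intervals of these 3 ratios include the median of all sites.

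The 3 sites of this group in WT alone lay at -60.4 kb (pileup 43, percentile 33.6), -47.7 kb (41, 0.469) and -46.8 kb (61, 25.8). The last of these amounts to 45.2 fragments at dKO depth, where 24 would meet the criteria against the background of the nearest dKO site. That was the shared site at -44.0 kb, with a dKO background 1.63 times that of the genome. The WT background at the -46.8 kb site itself was 2.08 times that of the genome, so with a like background in dKO more would be needed. The -46.8 kb site stood 887 bp from the -47.7 kb site, which holds the core sequence 2 times. That site ranked near the bottom of the WT list in fold enrichment at 4.05, with a local background of 9.37 fragments, although its pileup exceeded that of 27.1% of all WT sites. Within 3.63 kb, a pair of sites was thus missing from the dKO list and their neighbour was relatively higher in it.

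In the Satb1 gene body, the sites in WT alone were at +43.4 kb in intron 5 (pileup 52, percentile 43.9) and at +18.2 kb in intron 1 (32, 0.780). The first amounts to 38.6 fragments at dKO depth, where 17 would meet the criteria, and the dKO list had no peak there. At the second, dKO had a peak of 25 fragments with a fold enrichment of 3.73, just below the criteria. Between them, the shared sites at +27.2 kb (34 and 27 fragments) and +32.3 kb (51 and 26) had ratios of 0.23 and -0.41, with intervals that include the median of all sites.

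The rest of the Satb1 surroundings was sparse. On the 3′ side, 2 WT sites and 0 dKO sites were found, at +97.4 kb (pileup 33, percentile 22.6) and +348 kb (24, 8.31). Against the nearest dKO background, the latter was the 1 of the 9 WT-only sites at Satb1 that would have missed the criteria at dKO depth. It had 17.8 fragments where 26 are needed at a background of 5.51. Its own WT background was 4.38, near the 4.40 over the genome, and 16 would suffice at a dKO background of 3.22. The count is rough, since the +18.2 kb site was taken to pass with 23.7 fragments where 22 are needed. The dKO peak there had 25 fragments and missed the criteria. The limits of scaling, selection in WT and counting error given for Bcl11b hold here too. Far upstream, the sites at -246.8 kb (29, 20.0) and -230.0 kb (25, 9.62) were in WT alone. The site at -229.7 kb, only 295 bp from the latter, had 23 fragments in WT and 34 in dKO, with a centred log2 ratio of 1.13 (0.32 to 1.96) and percentiles of 4.70 and 42.1. Shared sites of like WT pileup had a median ratio of 0.56, and 88.9% of them had a lower ratio. The remaining shared site, at -22.8 kb, had 38 and 29 fragments and a ratio of 0.17.

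By rank within the own list, 4 union sites at each locus were at least 25 points lower in dKO and 2 at each locus at least 25 points higher. Over all union sites, 17.8% were lower and 7.05% higher by that much. The largest falls in rank were at Bcl11b +82.2, +75.5 and -118 kb and at Satb1 +43.4, -60.4 and -74.0 kb, and all of these but the last were sites in WT alone, which have percentile 0 in dKO. The largest gains were at Bcl11b +274 and +358 kb and at Satb1 -44.0 and -229.7 kb, all shared. The median difference in percentile over union sites was -0.55 at Bcl11b and -8.31 at Satb1, beside -4.59 over all union sites.

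Sequence near the summits was searched on both strands within 100 bp. The Tcf/Lef core ATCAAAG was in 2 of 24 WT sites at Bcl11b and 1 of 20 at Satb1, beside 3.81% of all WT sites and 5.23% of those away from TSSs. All 3 were in WT alone, a class in which 6.98% held the core over the whole list, against 2.61% of shared WT sites. For the 1086 WT sites with the core in the whole list, the share without a dKO site is not given here. The 3 of 3 can therefore not be set against it. None of the 31 dKO sites of these loci held it, beside 2.42% of all dKO sites. The remaining 15 of the 18 sites in WT alone, including the strongest at Bcl11b +82.2 kb, had no ATCAAAG in this window. The Ets sequence AGGAAG was in 12 of 20 WT sites at Satb1 and 9 of 24 at Bcl11b (60.0% and 37.5%), beside 35.7% of all WT sites and 41.7% of those away from TSSs. The Runx sequence TGTGGT was in 9 of 20 and 4 of 24 (45.0% and 16.7%), beside 21.8% and 29.8%. The CTCF motif was in 1 site at Bcl11b (-289.6 kb) and 0 at Satb1, beside 11.7% of WT sites. The E-box CAGCTG was in 4 WT sites at Bcl11b and 1 at Satb1, beside 12.6% of all WT sites. The GATA factors' sequence AGATAA was in 1 at each locus, beside 6.03%. The AP-1 sequence TGANTCA was in 0 at Bcl11b and 2 at Satb1, beside 6.09%. None of these sequences contains another, and a match of letters is no evidence of binding.

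Among 14 other genes for transcription factors, chosen by name, 11 had more WT than dKO sites in their windows, 3 had equal numbers and 0 had more in dKO. Over the genome 62.5% of all protein-coding genes, or 80.6% of those with at least 10 WT sites, had more WT than dKO sites. Bcl11a, the paralog of Bcl11b that acts in B cells and erythroid cells, had 5 WT and 4 dKO sites. Runx3 (36 and 24), Myb (22 and 14) and Gata3 (17 and 13) were among those with more WT sites, as were Satb1 (20 and 12) and Bcl11b (24 and 19). At Tcf7 itself the counts were 26 and 25, and at Lef1 33 and 33. The share of WT sites without a dKO site ran from 15% to 50% over these genes, and the values of Bcl11b (37.5%) and Satb1 (45.0%) lay within that range. Among 13511 protein-coding genes with at least 10 WT sites in the window, the median share was 25%, and Bcl11b stood at percentile 84.4 and Satb1 at 94.0. Windows of neighbouring genes overlap, so these genes are not independent of each other. The ranking also takes no account of site strength or distance from a TSS. By strength, the sums given above were 8.61 sites at Bcl11b and 8.40 at Satb1, beside the 9 and 9 observed. The genes most like the members, by the distance of their log2(count + 1) of sites in all 4 classes, were Ccdc135, Myl3 and Sema7a for Bcl11b and 2310037I24Rik, D1Bwg0212e and Ralgps2 for Satb1, which had identical counts.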

How the data were processed

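The study sequenced DNase I-treated naïve CD8+ T cells of 3 WT and 2 dKO replicates. The authors aligned the reads to mm9 with Bowtie2 2.2.5 (per the submitters' processing notes), removed duplicates, pooled the replicates and called peaks on paired ends with MACS2 2.1.1.20160309, at p of 1e-05 and with no control. The deposited pileup is a signal, the fragments of the pool over the summit, unscaled. The deposited fold enrichment is a ratio of that signal to the background that MACS2 estimated around the summit. The deposited -log10 p and -log10 q are the authors' MACS2 test of the summit, the latter adjusted within the list. The headers give the depth used here and list the pooled file and its sorted copy, of which each fragment was kept once.

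From these columns, ChrAcc sites, overlaps, percentiles within the own list (0 where a list had no site), centred log2 ratios of pileup and the local background were computed with Python 3.11.15, pandas 2.3.3, scipy 1.17.1 and pysam 0.24.0. Intervals are 95% Wilson (shares of sites) or exact binomial (ratios of pileup), over counting error only, and compare pools, not replicates. The steps were tested on simulated data. Annotation was gencode of mm9. Named sites are the promoter sites of both genes, every site in 1 list alone, the 3 highest percentiles of each list, the 3 largest falls and gains in percentile, and every site with ATCAAAG. Further sites were named after their values were seen. The members and lists were chosen with earlier results of these data known. A gene of the list of transcription factors is not reported here. Alternatives covered the site criteria, overlap, flank, motif window and scaling.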

Additional observations from a re-analysis of the deposited data

How the results depend on the processing

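Of 97 recomputed values, 70 stayed close to the reported one, which means within 1.5 times for counts and within the 95% order-statistic interval over the sites for medians. Those intervals are wide, from -20.0 to 11.7 (Bcl11b) and from -22.6 to -0.47 percentile points (Satb1), and from -0.16 to 0.60 and from -0.37 to 0.61 for the log2 ratios. The Bcl11b medians lay near 0 and took either sign, from -5.43 (rank by pileup) to 6.45 percentile points (fold enrichment of at least 8) and from -0.11 (scaled to fragments) to 0.25 (fold enrichment in place of pileup) on the log2 scale. The Satb1 median of percentile differences went from -12.5 (all deposited peaks) to -3.03 (fold enrichment of at least 8), and its log2 median took -0.0032 to 0.09 where the reported value was 0.17. A minimum fold enrichment of 8 left 7 WT sites at Bcl11b, 3 of them in WT alone, and 6 dKO sites, 2 of them in dKO alone. Of these, 2 of the 3 and both of the 2 were shared sites under the main criteria. At Satb1 it left 4 WT sites, all 4 in WT alone, and 1 dKO site. All of these were shared under the main criteria. The 4 WT sites had dKO fold enrichments of 5.23 to 7.90, so they fell below the cut in dKO but were not missing there. The share over all sites at this cut is not given here. No shared site remained at Satb1, so its median ratio of pileup could not be given, and 0 sites with ATCAAAG remained at either locus. With the 20000 peaks of highest −log10 p, Bcl11b had 12 WT sites, 4 WT-only and 7 dKO-only sites, and Satb1 had 11 WT sites, 3 WT-only and 2 dKO-only sites. Of the dKO-only sites, 5 at Bcl11b and 2 at Satb1 were shared under the main criteria. A flank of 100 kb gave 12 WT sites, 5 of them in WT alone, and 10 dKO sites at Bcl11b, and a flank of 500 kb gave 19 dKO sites at Satb1. A flank of 1 Mb gave 55 WT sites, 21 in WT alone, and 40 dKO sites at Bcl11b, and 37 WT sites, 26 dKO sites and 2 in dKO alone at Satb1. A motif window of 50 bp left 1 Bcl11b site with ATCAAAG, and the shorter core TCAAAG, chosen after seeing the data, was in 2 Satb1 WT sites. Fewer peaks, a smaller region or a narrower window are built into these settings, and the cause of the moves was not tested beyond that. No paired analysis was possible because the peaks were called on pools of replicates, and for the same reason no replicate could be left out. The dKO pool held 0.742 times the fragments of the WT pool, so a site weak in WT could be missed in dKO, and its absence from the dKO list does not show that it was closed.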

Other observations

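Beyond the windows, the far 3′ side of Bcl11b, where a distant enhancer region is known to act on the gene in T cell precursors, held 15 union sites between 819 and 992 kb downstream of the TSS. Of these, 9 were shared, 6 WT-only and 0 dKO-only. In the whole lists, 27.6% of WT sites had no dKO site and 14.4% of dKO sites had no WT site. Of the 15, 3 lay within 1 kb of a TSS of another gene (+819, +820.1 and +843 kb, among them 1 WT-only site), which leaves 12. Of these 12, 5 were WT-only, beside 35.3% of all WT sites more than 1 kb from a TSS. The shared sites had centred log2 ratios of pileup from -0.69 to 0.21 with a median of -0.08. Of these 9, 7 were below the median of all sites, beside 10266 of all 20533 shared sites. Without the sites at a TSS, 5 of 7 were below it, and the range was -0.57 to 0.21 with a median of -0.06. The highest pileup was at +864 kb, with 101 fragments in WT and 46 in dKO, and percentiles of 76.8 and 63.8. The site at +879 kb was in WT alone with a pileup of 66, and the one 708 bp from it was shared with 37 and 25 fragments. The region lay outside the 300 kb rule, and no comparison of it with the nearer flank was tested.

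Upstream of Satb1, 5 union sites lay just outside the window, between -350.3 and -316.6 kb. The 4 shared ones all had ratios above the median of all sites, from 0.16 to 0.62, and the strongest had 103 fragments in each pool at -330.1 kb. Farther out, 4 shared sites between -727 and -616 kb included the highest rank of the region, percentile 96.8 in WT at -727 kb, where the pileups were 106 and 52. Ratios there ranged from -0.79 to 0.59. These sites were looked at after the values were seen.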
